A study of Mus musculus with 15 samples.

Results

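The genes described here encode phase II enzymes, which make foreign and endogenous compounds more water-soluble by attaching a charged or polar group, the carboxylesterases, which split esters and amides, and the enzymes that make and recycle glutathione. Members were taken by gene symbol: Gst with the class letter a, k, m, o, p, t or z and a number, Ugt, Sult or Ces with a number, and Gclc, Gclm, Gss, Gsr, Nqo1 and Ephx1. By this rule 68 of the 19938 genes measured were members. They comprised 19 glutathione S-transferase, 11 UDP-glucuronosyltransferase, 16 sulfotransferase and 16 carboxylesterase genes, 4 genes of glutathione synthesis and recycling, and Nqo1 and Ephx1. RefSeq lists 90 protein-coding genes under the same symbols, and the other 22, all Ugt1 genes among them, had no probe set of their own.

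RNA was taken from epithelial cells of the small intestine of wild-type BALB/c mice at 10 weeks of age and hybridised to 15 Affymetrix whole-transcript arrays. The control group (n = 3) carried no agent. The other 4 groups (n = 3 each) came from mice given RANKL, a TNF-family cytokine and the ligand of RANK, by intraperitoneal injection as a fusion protein with GST for 1, 2, 3 or 4 days. Epithelium was detached in 30 mM EDTA over 10 min. The samples include no mice injected with GST alone or with vehicle, so effects of injection, of GST and of RANKL cannot be told apart. Whether each array stands for a different mouse is not labelled, and the p-values therefore measure only the spread between these samples, which may be technical. In a bulk sample, fewer cells of a type and less RNA per cell cannot be told apart.

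Enterocytes of the small intestine are, after hepatocytes, a main site of conjugation and ester hydrolysis, because food compounds and oral drugs reach them first. Glutathione S-transferases couple electrophiles to glutathione, UDP-glucuronosyltransferases add glucuronic acid in the endoplasmic reticulum, and sulfotransferases add sulfate in the cytosol. Carboxylesterases of the endoplasmic reticulum hydrolyse ester prodrugs and also acylglycerols and cholesteryl esters. The transcription factor NRF2 acts through antioxidant response elements and is known to induce Gclc, Gclm, Nqo1 and several Gst genes.

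Values are log2 intensities after quantile normalisation, differences are log2 differences of group means with their standard error (SE), and a gene was called at a Benjamini-Hochberg adjusted p under 0.05 over all 19938 genes in limma. Counts at an unadjusted p under 0.05 have no share of all genes beside them, because that share was not taken. Such counts are therefore not a result about the genes counted. A probe set's level also depends on its own sequences, so levels were compared between groups and not between genes. The array medians lay between 7.20 and 7.38 before normalisation, and RANKL day 1 replicate 2 stood apart, with an interquartile range of 1.95 where the other 14 arrays had 2.26 to 2.55. A gene was taken as near background in a group where its mean lay at or under the 95th percentile of 1194 olfactory and vomeronasal receptor genes, which was 7.10 to 7.52. By this measure 27 of the 68 members, 13 of the 16 Sult and 7 of the 11 Ugt genes among them, were near background in all 5 groups, and 29 were near background in none. Differences of members near background may be understated. Many members of the Gsta, Gstm, Ugt2b, Ces1 and Ces2 groups are close paralogs, so a probe set may also take up RNA of a neighbouring gene.

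Over the 4 days of RANKL 10 members fell, Gstk1, Ces2a and Ugt2b36 most, all of them on days 1 to 3. Another 9 rose, Gsta3, Ces1g and Ces2f most. On day 1 of RANKL 10 of the 68 members were called (14.7%), against 3.94% of all genes. Of these 1 was higher and 9 were lower, where 2% and 1.94% of all genes were. On day 2 there were again 10, 3 higher and 7 lower, against 2.57% of all genes (1.52% higher and 1.05% lower). On day 3 there were 8, 4 higher and 4 lower, against 2.96% (1.72% and 1.24%). On day 4 there were 4, all higher, against 0.908% (0.818% higher and 0.0903% lower), and 3 members were lower at an unadjusted p under 0.05. The members whose arrays did not overlap those of the controls numbered 22 on day 1 (14.6% of all genes), 19 on day 2 (17.5%), 24 on day 3 (22.2%) and 18 on day 4 (18.2%). The moderated F test over the 4 days called 19 members, against 3.6% of all genes. No member was called in both directions. Of the 10 lower members, 8 had their lowest RANKL mean on day 1, and 3 (Gstk1, Ces2b and Ces2e) were called lower on 3 days. Of the 9 higher members, 4 had their highest mean on day 4. The median difference of all 68 members was near that of all genes (-0.04 and -0.01 on day 1, 0.09 and 0.01 on day 4).

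Leaving out 1 array moved these counts. Arrays were left out 1 at a time, and where a call ended without any of several arrays the range of the adjusted p is given in parentheses. Without control replicate 3 the count was 5 on day 1 (2.23% of all genes), 5 on day 2 (1.42%), 2 on day 3 (1.35%) and 4 on day 4 (0.632%). Without RANKL day 1 replicate 2, the array that stood apart, it was 13 (5.04% of all genes), 12 (3.62%), 11 (5.96%) and 7 (1.7%). On day 1 of these 13 members 4 were higher and 9 lower, where 3.24% and 1.81% of all genes were. Without that array the day 1 calls of Ces1g (adjusted p = 0.0327), Gsta3 (0.0487), Ugt2b35 (0.0492) and Gstt1 (0.0139) were gained, and that of Gstm1 was lost. The day 2 count was also 6 without control replicate 2 or RANKL day 2 replicate 2. The day 3 count was 4 without control replicate 2, and 5 without control replicate 1 or RANKL day 3 replicate 2 or 3. The share of all genes is not given for these last day 2 and day 3 fits. It moves with the array left out, on day 3 from 1.35% without control replicate 3 to 5.96% without RANKL day 1 replicate 2. These last counts are therefore not a result about the members.

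**Figure D1:**
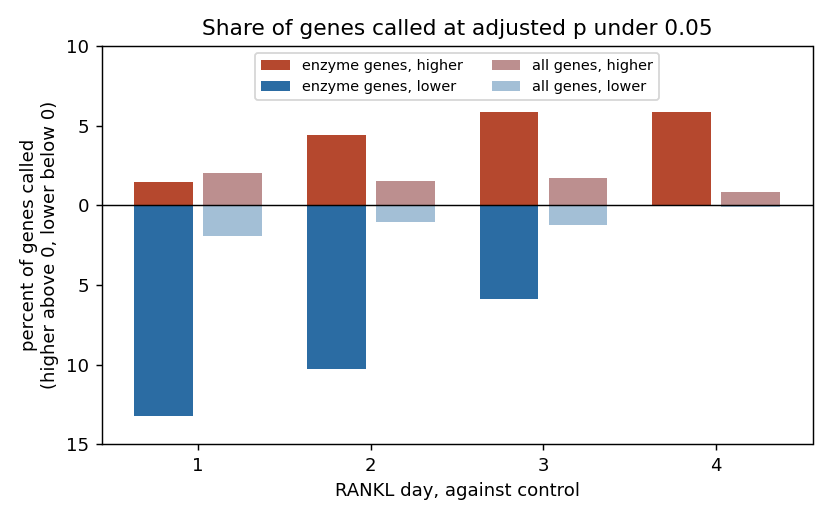
Percent of genes called higher or lower than control (adjusted p under 0.05, limma) on each RANKL day, for the 68 members and for all 19938 genes. The members' share of lower calls is above that of all genes on days 1 to 3 and is 0 on day 4, where that of all genes is 0.0903%.

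**Figure D2:**
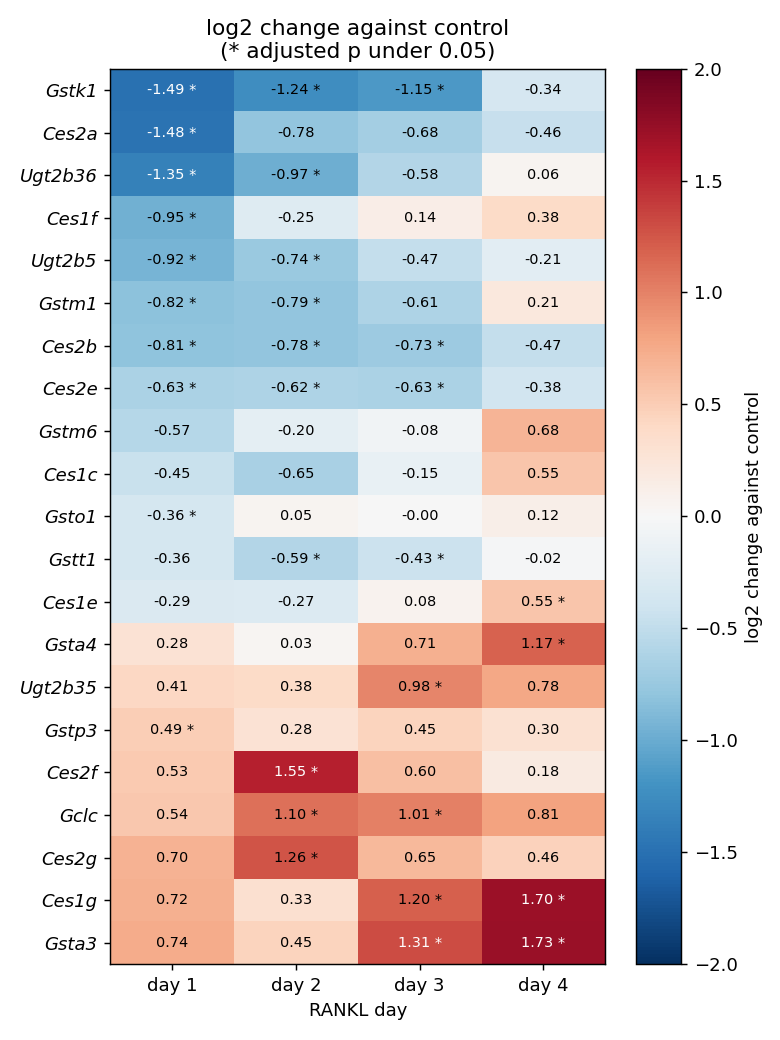
Log2 difference from control on RANKL days 1 to 4 (columns) for the 21 members called in any comparison (n = 3 arrays per group), with an asterisk where the member was called against control that day. The strongest falls lie on days 1 and 2 and the strongest rises of Gsta3, Gsta4 and Ces1g on day 4.

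Both alpha-class glutathione transferases with a probe set of their own rose. These are Gsta3, whose product conjugates the aflatoxin epoxide, and Gsta4, whose product conjugates 4-hydroxynonenal, a product of lipid peroxidation. Gsta3 measured 7.12, 7.25 and 6.90 in the controls, 8.06, 7.42 and 8.02 on day 1, 7.56, 7.87 and 7.19 on day 2, 8.10, 9.00 and 8.10 on day 3, and 8.89, 8.60 and 8.96 on day 4. All arrays of days 1, 3 and 4 lay above all controls, and the controls were near background. Gsta3 rose by 1.31 ± 0.25 on day 3 (2.48-fold, adjusted p = 0.0111) and by 1.73 ± 0.25 on day 4 (3.31-fold, adjusted p = 0.00312). For Gsta3, the day 3 call ended without control replicate 3 (0.0589). Gsta4 measured 8.22, 8.24 and 8.49 in the controls, 8.84, 8.24 and 8.72 on day 1, 8.30, 8.36 and 8.38 on day 2, 9.15, 9.11 and 8.81 on day 3, and 9.35, 9.16 and 9.95 on day 4. Its day 1 and day 2 arrays overlapped the controls and its day 3 and day 4 arrays did not. Gsta4 rose by 1.17 ± 0.19 on day 4 (2.26-fold, adjusted p = 0.00664), and on day 3 its difference was 0.71 ± 0.19 (adjusted p = 0.0611). Another 4 alpha-class probe sets match several genes and are not members. Their day 4 differences ran from 1.31 to 1.84 and were not called (adjusted p 0.126 to 0.192).

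The promoter of Gsta3 is shown because, of the windows at hand for members called higher, it alone held the core of the antioxidant response element. The 250 bases before its start are given in GRCm38.p6 from RefSeq (chr1:21240335-21240584, plus strand), with matches in capitals. The element (TGACNNNGC, either strand) lies 121 bases before the start, and a GATA factor motif (AGATAA, either strand, here read as TTATCT) begins 95 bases before it.
Gsta3: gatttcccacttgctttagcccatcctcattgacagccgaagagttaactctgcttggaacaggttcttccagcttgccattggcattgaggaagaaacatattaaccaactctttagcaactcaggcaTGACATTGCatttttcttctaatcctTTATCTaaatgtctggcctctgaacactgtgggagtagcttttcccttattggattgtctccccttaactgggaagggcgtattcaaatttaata
Windows of 250 bases before to 50 after the start were at hand for 58 of the 68 members (70 windows). TGACNNNGC was found in 12.4% of the 32851 windows of all genes and in 5.71% of the members' windows, those of Gclm, Gsta3, Gstm5 and Gstm7. AGATAA was found in 11.2% of all windows and in 21.4% of the members' windows, and CAAAGTCCA, an HNF4A motif, in 0.475% and 1.43%. A match is a description of the letters and no evidence of binding.

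Among the 10 genes of the other transferase classes, Gstk1 fell most. Its product is the kappa-class enzyme of mitochondria and peroxisomes. Gstk1 measured 10.62, 10.63 and 10.98 in the controls, 9.02, 9.12 and 9.62 on day 1, 9.59, 9.36 and 9.56 on day 2, 9.56, 9.68 and 9.54 on day 3, and 10.65, 10.09 and 10.49 on day 4. All 9 arrays of days 1 to 3 lay below all controls, and day 4 overlapped them. Gstk1 fell by 1.49 ± 0.17 on day 1 (2.82-fold, adjusted p = 0.000141), by 1.24 ± 0.17 on day 2 (2.36-fold, adjusted p = 0.000765) and by 1.15 ± 0.17 on day 3 (2.22-fold, adjusted p = 0.00173). On day 4 the difference was -0.34 ± 0.17 (adjusted p = 0.555). These 3 calls held under each of the 24 alternatives tried, among them the fits without each array in turn.

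Gstk1 is shown as the transferase that fell most. Its 250 bases before the start (chr6:42245685-42245934, plus strand, GRCm38.p6, RefSeq) hold the GATA motif 129 bases before the start, in capitals.
Gstk1: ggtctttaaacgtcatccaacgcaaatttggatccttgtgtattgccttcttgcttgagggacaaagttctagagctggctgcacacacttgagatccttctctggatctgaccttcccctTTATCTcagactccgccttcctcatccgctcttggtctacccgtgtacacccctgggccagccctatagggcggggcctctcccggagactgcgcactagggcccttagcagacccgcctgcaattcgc
It held none of the other motifs searched.

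Gstt1, a theta-class transferase that acts on small halogenated compounds, measured 8.09, 8.16 and 8.08 in the controls, 7.64, 7.94 and 7.68 on day 1, 7.42, 7.60 and 7.54 on day 2, 7.63, 7.79 and 7.63 on day 3, and 8.26, 7.93 and 8.08 on day 4. Its arrays of days 1 to 3 lay below all controls and those of day 4 overlapped them. Gstt1 fell by 0.59 ± 0.10 on day 2 (1.5-fold, adjusted p = 0.00416) and by 0.43 ± 0.10 on day 3 (1.34-fold, adjusted p = 0.0316), and on day 1 its difference was -0.36 ± 0.10 (adjusted p = 0.0591). Gsto1, an omega-class enzyme that reduces dehydroascorbate and arsenic species, measured 11.46, 11.26 and 11.39 in the controls, 11.14, 10.95 and 10.94 on day 1, 11.39, 11.37 and 11.51 on day 2, 11.35, 11.34 and 11.40 on day 3, and 11.59, 11.42 and 11.44 on day 4. Only its 3 day 1 arrays lay below all controls. Gsto1 fell by 0.36 ± 0.08 on day 1 (1.28-fold, adjusted p = 0.0206).

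Gstp3, a pi-class gene near background in the controls, measured 7.60, 7.00 and 7.24 in the controls, 7.91, 7.62 and 7.78 on day 1, 7.50, 7.61 and 7.57 on day 2, 7.78, 7.85 and 7.55 on day 3, and 7.58, 7.58 and 7.59 on day 4. The day 1 arrays lay above all controls, the lowest by a narrow margin, and the arrays of the later days overlapped them. Gstp3 rose by 0.49 ± 0.13 on day 1 (1.4-fold, adjusted p = 0.0495). The uncalled gene of these classes with the largest difference was Gstz1, which encodes maleylacetoacetate isomerase of tyrosine breakdown, at -0.35 ± 0.17 on day 1 (adjusted p = 0.358). Gstz1 measured 8.68, 8.43 and 8.62 in the controls and 8.59, 7.71 and 8.41 on day 1, and without RANKL day 1 replicate 2, its low array, the difference was -0.08. For Gstt1, the day 3 call ended without each control array and RANKL day 3 replicates 1 and 3 (0.0722 to 0.137), without further scaling (0.0571) and after centring on medians (0.0502). For Gsto1, the day 1 call ended without control replicates 1 and 3 and RANKL day 1 replicate 3 (0.0745 to 0.0773), after centring on medians (0.0657) and when only those groups were fitted (0.212). For Gstp3, the day 1 call ended without any 1 of the arrays other than control replicate 1, RANKL day 1 replicate 2 and RANKL day 3 replicate 3 (0.0582 to 0.158), after centring on medians (0.0901), after adding 16 before log2 (0.0506), under a robust, trended prior (0.0575) and when only those groups were fitted (0.294).

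The 7 mu-class genes, which lie side by side on chromosome 3, were all below control on day 1 (median -0.45) and all above it on day 4 (median 0.20), but only Gstm1 was called against control. Without RANKL day 1 replicate 2, the array that stood apart, 5 of the 7 were below control on day 1 (median -0.32). Gstm5 then turned from -0.13 to 0.23, and Gstm2 from -0.04 to 0.00. Gstm1 encodes a main cytosolic transferase. Gstm1 measured 11.03, 11.04 and 11.17 in the controls, 10.24, 10.29 and 10.25 on day 1, 10.29, 10.40 and 10.16 on day 2, 10.04, 10.99 and 10.36 on day 3, and 11.31, 10.95 and 11.60 on day 4. All arrays of days 1 to 3 lay below all controls, though replicate 2 of day 3 came close, and day 4 overlapped them. Gstm1 fell by 0.82 ± 0.20 on day 1 (1.76-fold, adjusted p = 0.0305) and by 0.79 ± 0.20 on day 2 (1.73-fold, adjusted p = 0.0486). For Gstm1, the day 1 call ended without each control array and each RANKL day 1 array (0.0521 to 0.116). Its day 2 call ended without any 1 of the arrays other than RANKL day 1 replicate 2, RANKL day 3 replicates 1 and 2 and RANKL day 4 replicates 2 and 3 (0.0618 to 0.175), after centring on medians (0.0702) and after adding 16 before log2 (0.0531).

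Gstm3, the uncalled mu gene with the largest difference, measured 9.78, 9.79 and 9.90 in the controls, 9.25, 9.10 and 8.66 on day 1, 9.46, 9.55 and 9.01 on day 2, 8.83, 9.90 and 9.59 on day 3, and 10.14, 9.55 and 10.09 on day 4. Its day 1 and day 2 arrays lay below all controls, and its day 1 difference was -0.82 ± 0.25 (adjusted p = 0.0924). A second, dimmer Gstm3 probe set gave -1.07 on day 1 (adjusted p = 0.171). Gstm6 measured 7.43, 7.46 and 7.63 in the controls, 7.09, 6.42 and 7.29 on day 1, 7.37, 7.25 and 7.29 on day 2, 7.16, 7.72 and 7.41 on day 3, and 8.53, 8.07 and 7.97 on day 4. It lay below all controls on days 1 and 2 and above all of them on day 4, with differences of -0.57 ± 0.20 on day 1 (adjusted p = 0.167) and 0.68 ± 0.20 on day 4 (adjusted p = 0.205). Without RANKL day 1 replicate 2, the lowest of that group, the day 1 difference was -0.32, and its groups of days 1 and 2 were near background. Since the 7 genes are close paralogs, these are not 7 independent measurements.

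Of the 11 Ugt genes, Ugt2b36 and Ugt2b5 were called lower on days 1 and 2, and Ugt2b35 was called higher on day 3. They are neighbours on chromosome 5 in the order Ugt2b35, Ugt2b36, Ugt2b5, and Ugt2b enzymes glucuronidate steroids, bile acids and drugs. Ugt2b36 measured 8.30, 8.58 and 8.51 in the controls, 7.24, 6.82 and 7.28 on day 1, 7.74, 7.53 and 7.22 on day 2, 7.48, 8.26 and 7.90 on day 3, and 8.84, 8.40 and 8.32 on day 4. Days 1 to 3 lay below all controls and day 4 overlapped them. Ugt2b36 fell by 1.35 ± 0.20 on day 1 (2.55-fold, adjusted p = 0.0015) and by 0.97 ± 0.20 on day 2 (1.96-fold, adjusted p = 0.0184). Its day 1 mean was near background, so the fall on that day may be understated.

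Ugt2b5 measured 7.22, 7.27 and 6.93 in the controls, 6.55, 6.02 and 6.09 on day 1, 6.66, 6.44 and 6.10 on day 2, 6.54, 6.75 and 6.72 on day 3, and 7.21, 6.90 and 6.68 on day 4. It was near background in every group, the controls included, so its own RNA may not have been measured, or its fall may be understated. Its probe set may also take up RNA of its neighbour Ugt2b36. The Ugt2b5 arrays of days 1 to 3 lay below all controls. Ugt2b5 fell by 0.92 ± 0.17 on day 1 (1.9-fold, adjusted p = 0.00809) and by 0.74 ± 0.17 on day 2 (1.67-fold, adjusted p = 0.0373). Ugt2b35 measured 7.58, 7.97 and 7.76 in the controls, 8.52, 7.60 and 8.43 on day 1, 8.25, 8.40 and 7.79 on day 2, 8.45, 8.92 and 8.90 on day 3, and 8.37, 8.71 and 8.58 on day 4. Only the day 3 and day 4 arrays lay above all controls. Its day 1 difference was 0.41 (adjusted p = 0.453). Without RANKL day 1 replicate 2, the lowest of that group, it was 0.70 and was called (adjusted p = 0.0492). Ugt2b35 rose by 0.98 ± 0.23 on day 3 (1.98-fold, adjusted p = 0.034), and on day 4 its difference was 0.78 ± 0.23 (adjusted p = 0.192). For Ugt2b36, the day 2 call ended without control replicates 2 and 3 and RANKL day 2 replicates 2 and 3 (0.0656 to 0.0793). For Ugt2b5, the day 2 call ended without each control array, RANKL day 2 replicates 2 and 3, RANKL day 3 replicates 2 and 3 and RANKL day 4 replicate 2 (0.0509 to 0.129), after centring on medians (0.06) and when only those groups were fitted (0.0532). For Ugt2b35, the day 3 call ended without each control array and RANKL day 3 replicates 2 and 3 (0.0573 to 0.145) and after centring on medians (0.0527).

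The promoters of the neighbours Ugt2b36 and Ugt2b5 are shown because both genes were called lower on days 1 and 2 and share sequence. The 250 bases before each start are given in GRCm38.p6 from RefSeq (Ugt2b36 at chr5:87092556-87092805, minus strand; Ugt2b5 at chr5:87140341-87140590, minus strand). Capitals mark AGATAA on either strand, found in Ugt2b36 at 197, 130 and 32 bases before the start and in no place of the Ugt2b5 window.
Ugt2b36: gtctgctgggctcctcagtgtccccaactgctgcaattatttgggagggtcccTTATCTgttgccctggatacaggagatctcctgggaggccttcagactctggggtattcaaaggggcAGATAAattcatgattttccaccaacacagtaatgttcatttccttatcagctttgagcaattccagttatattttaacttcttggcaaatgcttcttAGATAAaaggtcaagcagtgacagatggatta
Ugt2b5: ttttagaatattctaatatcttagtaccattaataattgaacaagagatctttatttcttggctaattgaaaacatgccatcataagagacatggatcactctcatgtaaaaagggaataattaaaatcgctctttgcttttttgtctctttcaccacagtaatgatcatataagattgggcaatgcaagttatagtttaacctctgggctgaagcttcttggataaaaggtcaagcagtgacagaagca
Their longest shared run is 24 bases, gataaaaggtcaagcagtgacaga, which begins 31 bases before the start in Ugt2b36 and 28 before it in Ugt2b5.

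**Figure D3:**
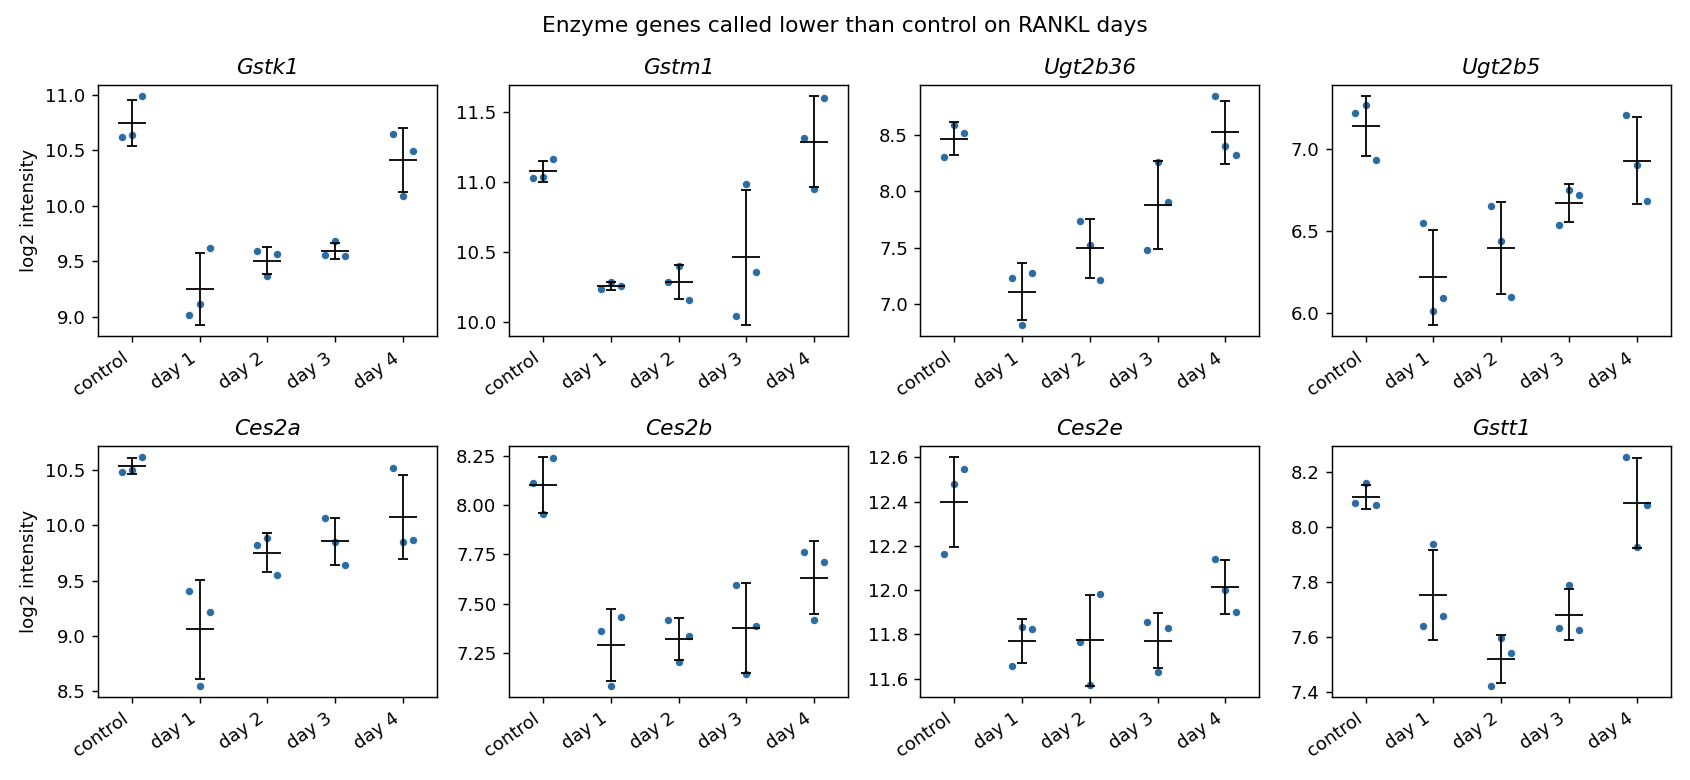
Log2 intensity (vertical axis) of 8 members called lower than control, in the controls and on RANKL days 1 to 4; points are the 3 arrays of a group and bars the mean ± SD. Day 1 arrays lie below the controls in each panel, and in 6 of the panels at least 1 day 4 array lies above the lowest control.

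Ugt2a3 was the uncalled Ugt gene with the largest difference, and its arrays were far apart within groups. Ugt2a3 measured 7.75, 8.98 and 8.74 in the controls, 7.66, 9.02 and 7.62 on day 1, 7.99, 7.93 and 7.38 on day 2, 6.72, 8.61 and 7.26 on day 3, and 9.64, 9.46 and 7.15 on day 4. Its arrays overlapped the controls on every day, and its day 3 difference was -0.96 ± 0.63 (adjusted p = 0.525). The single probe set shared by 8 Ugt1a genes, which is no member, differed by -0.04 on day 1 and was not called on any day.

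No sulfotransferase was called in any comparison by limma. At an unadjusted p under 0.05, 2, 2, 1 and 0 of the 16 differed from control on days 1 to 4, and 13 of the 16 were near background in all groups. The largest difference was that of Sult1d1, which sulfates catecholamines and lies beside Sult1b1 on chromosome 5. Sult1d1 measured 11.17, 11.84 and 11.86 in the controls, 10.95, 11.23 and 11.01 on day 1, 11.26, 11.07 and 11.16 on day 2, 10.79, 11.57 and 11.08 on day 3, and 11.82, 11.58 and 11.58 on day 4. Control replicate 1 lay with the day 1 to day 3 arrays, so these groups overlapped the controls. Its differences were -0.56 ± 0.19 on day 1 (adjusted p = 0.157), -0.46 ± 0.19 on day 2 (adjusted p = 0.343) and -0.48 ± 0.19 on day 3 (adjusted p = 0.238). Sult1b1, which sulfates thyroid hormones and phenols, differed by -0.45 ± 0.16 on day 1 (adjusted p = 0.167).

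In the Ces1 cluster on chromosome 8, Ces1f, whose enzyme acts on triacylglycerol, fell on day 1. Its neighbours were called higher, Ces1g on days 3 and 4 and Ces1e on day 4. Ces1g hydrolyses cholesteryl and other lipid esters. Ces1f measured 10.80, 10.60 and 11.09 in the controls, 10.02, 9.45 and 10.17 on day 1, 10.57, 10.45 and 10.71 on day 2, 10.64, 11.00 and 11.28 on day 3, and 10.99, 11.15 and 11.50 on day 4. Its day 1 arrays lay below all controls, and the arrays of the other days overlapped them. Ces1f fell by 0.95 ± 0.20 on day 1 (1.94-fold, adjusted p = 0.0174).

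Ces1g measured 7.32, 7.15 and 7.82 in the controls, 8.33, 7.67 and 8.43 on day 1, 7.68, 7.71 and 7.88 on day 2, 8.65, 8.89 and 8.34 on day 3, and 8.66, 9.30 and 9.44 on day 4. Its day 3 and day 4 arrays lay above all controls, while those of days 1 and 2 overlapped them. The day 1 difference was 0.72 (adjusted p = 0.137). Without RANKL day 1 replicate 2, the lowest of that group, it was 0.95 and was called (adjusted p = 0.0327). Ces1g rose by 1.20 ± 0.24 on day 3 (2.29-fold, adjusted p = 0.0167) and by 1.70 ± 0.24 on day 4 (3.26-fold, adjusted p = 0.00275). Ces1e measured 7.08, 6.89 and 7.17 in the controls, 6.93, 6.70 and 6.65 on day 1, 6.98, 6.64 and 6.71 on day 2, 7.05, 7.21 and 7.12 on day 3, and 7.71, 7.54 and 7.54 on day 4. Its controls were near background and only its day 4 arrays lay above all of them. Ces1e rose by 0.55 ± 0.10 on day 4 (1.47-fold, adjusted p = 0.0231).

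On day 4 all 7 Ces1 genes were above control (median difference 0.38), 2 of them called, whereas on day 1 5 of the 7 were below it, and 4 without RANKL day 1 replicate 2. Ces1c, not called against control on any day and near background in the controls, measured 6.85, 6.86 and 7.04 in the controls, 6.70, 5.92 and 6.78 on day 1, 6.26, 6.29 and 6.26 on day 2, and 7.59, 7.40 and 7.40 on day 4. Its arrays lay below all controls on days 1 and 2 and above all of them on day 4, at -0.65 ± 0.19 on day 2 (adjusted p = 0.102) and 0.55 ± 0.19 on day 4 (adjusted p = 0.306). Ces1d differed by 0.37 ± 0.09 on day 4 (adjusted p = 0.108). For Ces1f, the day 1 call ended without control replicate 3 (0.0843) and when only those groups were fitted (0.0905). For Ces1g, the day 3 call ended without control replicates 1 and 2 and RANKL day 3 replicate 2 (0.0598 to 0.07). For Ces1e, the day 4 call ended without control replicates 1 and 2 and each RANKL day 4 array (0.0555 to 0.125) and when only those groups were fitted (0.0518).

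The Ces2 genes divided along the chromosome. Ces2a, Ces2b and Ces2e fell, and Ces2f and Ces2g, the next measured genes after Ces2e on chromosome 8, rose on day 2. Ces2 enzymes are the main intestinal carboxylesterases for ester prodrugs such as irinotecan, and Ces2 proteins also hydrolyse acylglycerols. Ces2a measured 10.48, 10.50 and 10.62 in the controls, 9.41, 8.55 and 9.22 on day 1, 9.83, 9.89 and 9.55 on day 2, 10.07, 9.85 and 9.65 on day 3, and 10.52, 9.85 and 9.87 on day 4. All arrays of days 1 to 3 lay below all controls, with the lowest value in RANKL day 1 replicate 2. Ces2a fell by 1.48 ± 0.21 on day 1 (2.78-fold, adjusted p = 0.00113), and its later differences included -0.78 ± 0.21 on day 2 (adjusted p = 0.0779) and -0.68 ± 0.21 on day 3 (adjusted p = 0.111).

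Ces2b measured 8.11, 7.95 and 8.24 in the controls, 7.36, 7.08 and 7.43 on day 1, 7.42, 7.20 and 7.34 on day 2, 7.60, 7.14 and 7.39 on day 3, and 7.76, 7.42 and 7.71 on day 4. All 12 RANKL arrays lay below all controls. Ces2b fell by 0.81 ± 0.13 on day 1 (1.75-fold, adjusted p = 0.00301), by 0.78 ± 0.13 on day 2 (1.72-fold, adjusted p = 0.00485) and by 0.73 ± 0.13 on day 3 (1.66-fold, adjusted p = 0.00907), and on day 4 its difference was -0.47 ± 0.13 (adjusted p = 0.163). Its means of days 1 and 2 were near background, so the falls on those days may be understated. Ces2e measured 12.16, 12.48 and 12.55 in the controls, 11.66, 11.84 and 11.82 on day 1, 11.77, 11.57 and 11.98 on day 2, 11.85, 11.63 and 11.83 on day 3, and 12.14, 12.00 and 11.90 on day 4. Here too all RANKL arrays lay below all controls. Ces2e fell by 0.63 ± 0.12 on day 1 (1.54-fold, adjusted p = 0.00941), by 0.62 ± 0.12 on day 2 (1.54-fold, adjusted p = 0.0121) and by 0.63 ± 0.12 on day 3 (1.54-fold, adjusted p = 0.0131), nearly the same on each day.

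Ces2f measured 6.66, 6.74 and 6.88 in the controls, 7.62, 6.87 and 7.37 on day 1, 7.93, 7.80 and 9.20 on day 2, 7.26, 7.26 and 7.56 on day 3, and 6.98, 7.12 and 6.71 on day 4. Its controls were near background, its day 2 and day 3 arrays lay above all of them, and replicate 3 of day 2 was by far the highest. Ces2f rose by 1.55 ± 0.29 on day 2 (2.93-fold, adjusted p = 0.00962), and the call held without that array. Ces2g measured 7.20, 6.91 and 7.24 in the controls, 7.99, 7.65 and 7.80 on day 1, 8.08, 8.03 and 9.02 on day 2, 7.62, 7.86 and 7.82 on day 3, and 7.55, 7.84 and 7.35 on day 4. Its controls were near background, and all 12 RANKL arrays lay above all of them, again with replicate 3 of day 2 highest. Ces2g rose by 1.26 ± 0.22 on day 2 (2.39-fold, adjusted p = 0.00554). The 4 measured genes of the Ces3, Ces4 and Ces5 families did not differ by more than 0.19 in size, Ces5a most at -0.19 ± 0.10 on day 3 (adjusted p = 0.377). For Ces2b, the day 3 call ended without control replicate 3 (0.0507). For Ces2e, the day 1 call ended without control replicate 3 (0.0525) and when only those groups were fitted (0.0706). Its day 2 call ended without control replicates 2 and 3 and RANKL day 2 replicates 1 and 2 (0.0501 to 0.0704) and when only those groups were fitted (0.0646). Its day 3 call ended without control replicates 2 and 3 and RANKL day 3 replicate 2 (0.0551 to 0.0679) and after centring on medians (0.0527). For Ces2f, the day 2 call ended when only those groups were fitted (0.0606).

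The promoters of 4 Ces2 genes are shown because these neighbours moved in opposite directions and yet share a motif close to the start. The 250 bases before each start are given in GRCm38.p6 from RefSeq (Ces2a at chr8:104733753-104734002, plus strand; Ces2e at chr8:104926010-104926259, plus strand; Ces2f at chr8:104947106-104947355, plus strand; Ces2g at chr8:104961468-104961717, plus strand). Capitals mark ACTTTGCC, searched on both strands and chosen after these sequences had been seen, and AGATAA in Ces2g.
Ces2a: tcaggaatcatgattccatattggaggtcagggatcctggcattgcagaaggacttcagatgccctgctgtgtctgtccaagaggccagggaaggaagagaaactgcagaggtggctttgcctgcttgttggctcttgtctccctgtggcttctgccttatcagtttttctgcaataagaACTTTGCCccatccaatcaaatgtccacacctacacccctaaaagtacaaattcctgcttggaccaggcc
Ces2e: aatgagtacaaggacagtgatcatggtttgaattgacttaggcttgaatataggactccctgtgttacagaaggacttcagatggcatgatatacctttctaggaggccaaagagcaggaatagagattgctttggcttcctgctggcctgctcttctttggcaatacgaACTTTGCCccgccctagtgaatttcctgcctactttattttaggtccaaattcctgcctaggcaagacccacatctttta
Ces2f: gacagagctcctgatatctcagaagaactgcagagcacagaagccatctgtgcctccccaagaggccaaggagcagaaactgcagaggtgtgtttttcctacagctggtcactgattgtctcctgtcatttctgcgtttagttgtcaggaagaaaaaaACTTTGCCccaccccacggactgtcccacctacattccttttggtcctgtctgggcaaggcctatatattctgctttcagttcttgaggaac
Ces2g: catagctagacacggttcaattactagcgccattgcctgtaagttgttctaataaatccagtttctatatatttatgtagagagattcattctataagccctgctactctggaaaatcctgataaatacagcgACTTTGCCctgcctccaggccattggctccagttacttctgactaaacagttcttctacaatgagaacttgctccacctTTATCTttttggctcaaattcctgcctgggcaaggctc
ACTTTGCC begins 70 bases before the start in Ces2a, 80 in Ces2e, 92 in Ces2f and 117 in Ces2g, and in Ces2a, Ces2e and Ces2f it lies within the same run of 11 bases, aactttgcccc. It was found in 0.944% of all 32851 windows and in those of 7 members, the other 3 being Ephx1, Gstm1 and Sult2a8. Ces2a and Ces2e fell and Ces2f and Ces2g rose, so the motif stood in genes of both directions.

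**Figure D4:**
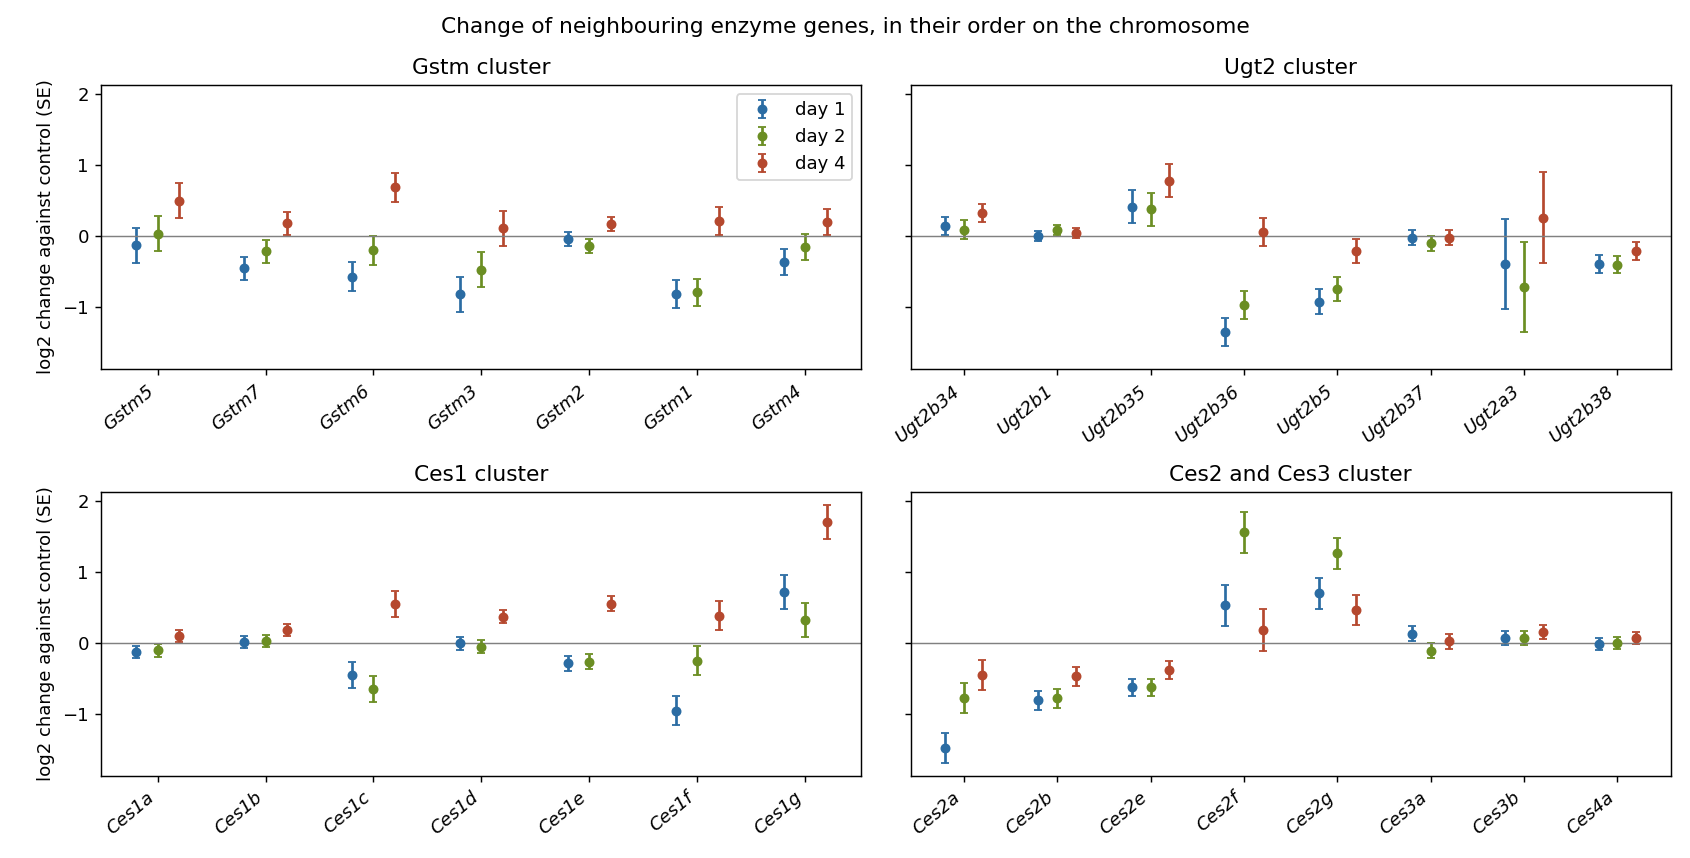
Log2 difference from control (vertical axis, ± SE) on RANKL days 1, 2 and 4 for the measured genes of 4 gene clusters, in chromosome order (horizontal axis). Along the Ces2 cluster the differences go from negative at Ces2a, Ces2b and Ces2e to positive at Ces2f and Ces2g, and within the Ces1 cluster Ces1f and Ces1g lie on opposite sides of 0 on day 1.

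Of the 4 glutathione genes only Gclc was called by limma, though with weights per array Gss was called too, on day 3 (0.38, adjusted p = 0.0314). Gclc encodes the catalytic subunit of glutamate-cysteine ligase, the enzyme of the rate-limiting step of glutathione synthesis. Gclc measured 10.58, 10.78 and 10.40 in the controls, 11.23, 11.05 and 11.09 on day 1, 11.57, 11.82 and 11.67 on day 2, 11.10, 12.03 and 11.66 on day 3, and 11.36, 11.74 and 11.08 on day 4. All 12 RANKL arrays lay above all controls. Gclc rose by 1.10 ± 0.20 on day 2 (2.15-fold, adjusted p = 0.00863) and by 1.01 ± 0.20 on day 3 (2.01-fold, adjusted p = 0.0168), and the other differences were 0.54 ± 0.20 on day 1 (adjusted p = 0.198) and 0.81 ± 0.20 on day 4 (adjusted p = 0.105). For Gclc, the day 2 call ended without control replicate 3 (0.0526). Its day 3 call ended without control replicates 1 and 3 and RANKL day 3 replicates 2 and 3 (0.051 to 0.0789) and when only those groups were fitted (0.0618).

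Gclm, which encodes the modifier subunit of the same ligase, measured 10.35, 10.49 and 10.76 in the controls, 10.41, 10.39 and 10.37 on day 1, 10.43, 10.62 and 10.35 on day 2, 10.35, 10.72 and 10.22 on day 3, and 10.94, 10.69 and 10.85 on day 4. Its arrays overlapped the controls on every day, and its differences were -0.14 ± 0.13 on day 1 (adjusted p = 0.721), -0.07 ± 0.13 on day 2 (adjusted p = 0.923), -0.10 ± 0.13 on day 3 (adjusted p = 0.781) and 0.29 ± 0.13 on day 4 (adjusted p = 0.492). Gss, glutathione synthetase of the second step, measured 9.78, 9.63 and 9.54 in the controls, 10.03, 9.88 and 9.91 on day 1, 9.89, 9.93 and 10.04 on day 2, 9.85, 10.04 and 10.02 on day 3, and 10.00, 9.77 and 10.07 on day 4. Its arrays of days 1 to 3 lay above all controls, with small differences of 0.29 ± 0.09 on day 1 (adjusted p = 0.116), 0.30 ± 0.09 on day 2 (adjusted p = 0.126), 0.32 ± 0.09 on day 3 (adjusted p = 0.0834) and 0.30 ± 0.09 on day 4 (adjusted p = 0.239).

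Gsr encodes glutathione reductase, which returns oxidised glutathione to its reduced form. Gsr measured 11.71, 11.95 and 11.71 in the controls, 12.08, 11.72 and 12.10 on day 1, 12.16, 12.32 and 12.56 on day 2, 12.04, 12.40 and 12.57 on day 3, and 11.65, 11.90 and 12.33 on day 4. The day 2 and day 3 arrays lay above all controls, and those of days 1 and 4 overlapped them. Its differences were 0.17 ± 0.18 on day 1 (adjusted p = 0.764), 0.55 ± 0.18 on day 2 (adjusted p = 0.154), 0.54 ± 0.18 on day 3 (adjusted p = 0.131) and 0.16 ± 0.18 on day 4 (adjusted p = 0.825).

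Nqo1 and Ephx1 were not called in any comparison by limma, and at an unadjusted p under 0.05 only 1 of them, on day 4, differed from control. Nqo1, which reduces quinones and is a usual marker of NRF2 activity, measured 8.34, 8.25 and 8.23 in the controls, 8.48, 7.53 and 8.34 on day 1, 8.30, 8.46 and 8.20 on day 2, 8.40, 9.01 and 8.75 on day 3, and 8.83, 8.52 and 9.13 on day 4. Its day 3 and day 4 arrays lay above all controls, and RANKL day 1 replicate 2 was the lowest of all. The differences were -0.16 ± 0.22 on day 1 (adjusted p = 0.841), 0.04 ± 0.22 on day 2 (adjusted p = 0.978), 0.45 ± 0.22 on day 3 (adjusted p = 0.35) and 0.56 ± 0.22 on day 4 (adjusted p = 0.422). Without that array the day 1 difference turned to 0.13. Ephx1, the microsomal epoxide hydrolase, measured 6.78, 6.82 and 6.89 in the controls, 6.70, 6.62 and 6.76 on day 1, 6.66, 6.66 and 6.69 on day 2, 7.04, 6.97 and 6.69 on day 3, and 6.92, 6.96 and 7.03 on day 4. It lay narrowly below all controls on days 1 and 2 and narrowly above them on day 4, and its differences were -0.14 ± 0.08 on day 1 (adjusted p = 0.507), -0.16 ± 0.08 on day 2 (adjusted p = 0.493), 0.07 ± 0.08 on day 3 (adjusted p = 0.763) and 0.14 ± 0.08 on day 4 (adjusted p = 0.658).

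**Figure D5:**
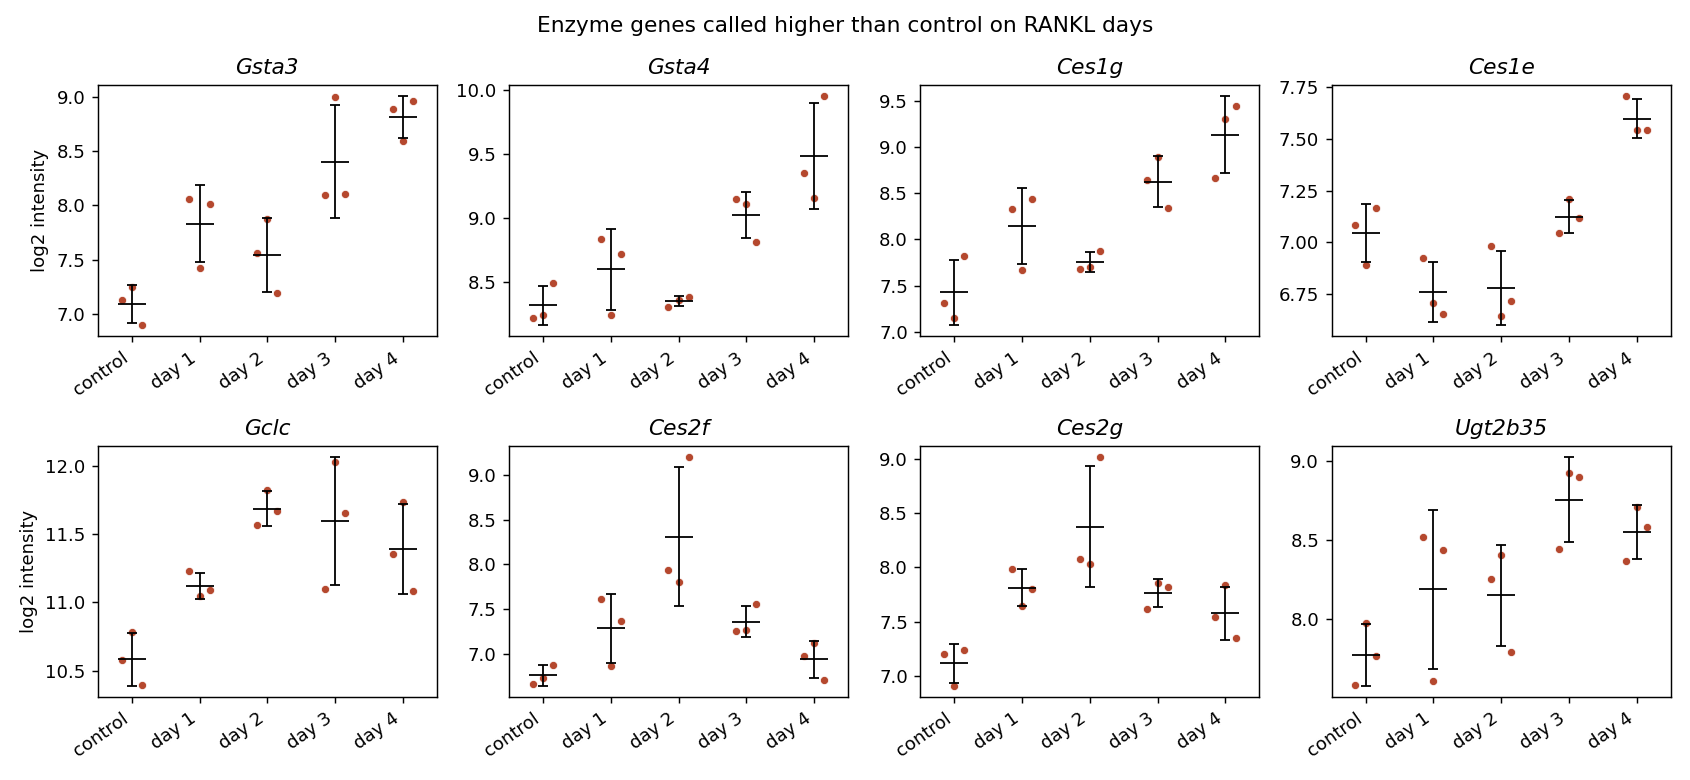
Log2 intensity (vertical axis) of 8 members called higher than control on at least 1 day, in the controls and on RANKL days 1 to 4; points are the 3 arrays of a group and bars the mean ± SD. Gsta3, Gsta4 and Ces1g have their highest group mean on day 4, and Ces2f, Ces2g and Gclc on day 2.

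Day 4 was also set directly against day 1, since no member was called lower than control on day 4. Here limma called 10 members higher on day 4 and 0 lower, where 1 was lower at an unadjusted p under 0.05, against 1.32% of all genes called in either direction and 1.04% called higher. The largest difference was that of Ugt2b36 (1.41 ± 0.20, adjusted p = 0.00459), followed by Ces1f (1.33 ± 0.20, adjusted p = 0.007), Gstm6 (1.26 ± 0.20, adjusted p = 0.0103) and Gstk1 (1.16 ± 0.17, adjusted p = 0.00461). Ces1c, Ces1e, Ces2a, Gsta4, Gstm1 and Gsto1 were the others. Without RANKL day 1 replicate 2, the array that stood apart, the calls of Ces2a (adjusted p = 0.0816), Gsta4 (0.108) and Gstm1 (0.052) ended. Of the 68 members, 27 had all day 4 arrays above all day 1 arrays and 4 had them below, together 31, where 19.5% of all genes did not overlap. Without RANKL day 4 replicate 1 the count was 4, where 0.291% of all genes were called. When only these groups were fitted 4 of the 19938 genes were called (0.0201%), and none of the 10 members was among them (adjusted p 0.089 to 0.252).

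From 1 day to the next no member was called in limma. Of all genes 0.201% were called for day 2 against day 1, 0% for day 3 against day 2 and 0.015% for day 4 against day 3. At an unadjusted p under 0.05 there were 10, 10 and 11 members in these comparisons. The share of all genes at that unadjusted threshold was not taken, so these member counts have no share to stand beside. With weights per array, 2 members were called for day 2 against day 1, against 0.838% of all genes, and 5 for day 4 against day 3, against 0.898%.

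The genes that supply or follow these enzymes were read from 7 lists with 75 measured genes, which hold no member. Of the 75, 3 were called higher and 3 lower on day 1, 3 and 3 on day 2, 4 and 3 on day 3, and 3 and 0 on day 4. Of all genes 2% were called higher and 1.94% lower on day 1, and 1.52% and 1.05% on day 2. On day 3 these shares were 1.72% and 1.24%, and on day 4 0.818% and 0.0903%. Among 9 efflux transporters of conjugates, Abcc1, which exports glutathione conjugates, rose by 1.02 ± 0.12 on day 1 (adjusted p = 0.000174), 0.80 ± 0.12 on day 2 (adjusted p = 0.00159), 0.96 ± 0.12 on day 3 (adjusted p = 0.000406) and 0.64 ± 0.12 on day 4 (adjusted p = 0.0157). Abcc6 fell by 0.72 ± 0.14 on day 2 (adjusted p = 0.0139) and 0.64 ± 0.14 on day 3 (adjusted p = 0.0304), and no other transporter of the list was called. At an unadjusted p under 0.05, 3, 4, 6 and 4 of the 9 differed from control on days 1 to 4. For this and the other lists, the share of all genes at that unadjusted threshold was not taken. For Abcc1, the day 4 call ended without control replicates 2 and 3 and RANKL day 4 replicate 2 (0.0685 to 0.0901). For Abcc6, the day 2 call ended without control replicates 1 and 3 and RANKL day 2 replicate 1 (0.0678 to 0.0691). Its day 3 call ended without control replicates 1 and 3 and each RANKL day 3 array (0.0504 to 0.131).

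Of 10 other glutathione enzymes, Mgst1, a membrane-bound transferase, fell by 1.15 ± 0.14 on day 1 (adjusted p = 0.000344) and 0.65 ± 0.14 on day 2 (adjusted p = 0.0245). Gpx1, glutathione peroxidase of the cytosol, rose by 0.62 ± 0.14 on day 1 (adjusted p = 0.0199) and 0.66 ± 0.14 on day 3 (adjusted p = 0.0184). Glrx, glutaredoxin, fell by 0.46 ± 0.10 on day 1 (adjusted p = 0.0216) and 0.43 ± 0.10 on day 3 (adjusted p = 0.0416). Hpgds, the sigma-class transferase that makes prostaglandin D and also a gene of the tuft cell list, rose by 0.54 ± 0.11 on day 3 (adjusted p = 0.0185) and 0.51 ± 0.11 on day 4 (adjusted p = 0.0494). For Mgst1, the day 2 call ended without control replicates 1 and 3 and RANKL day 2 replicates 2 and 3 (0.0765 to 0.107) and after centring on medians (0.0869). For Gpx1, the day 1 call ended without control replicates 2 and 3 and RANKL day 1 replicate 1 (0.0798 to 0.0942), without further scaling (0.0555), after centring on medians (0.139) and when only those groups were fitted (0.172). Its day 3 call ended without control replicates 2 and 3 and RANKL day 3 replicates 1 and 2 (0.062 to 0.087), after centring on medians (0.0535) and when only those groups were fitted (0.0718). For Glrx, the day 1 call ended without control replicates 1 and 3 and RANKL day 1 replicates 1 and 2 (0.0525 to 0.0755), with weights per array (0.051) and when only those groups were fitted (0.0628). Its day 3 call ended without any 1 of the arrays other than RANKL day 1 replicates 1 and 2, RANKL day 3 replicate 1 and RANKL day 4 replicate 1 (0.0501 to 0.189), without further scaling (0.096), after centring on medians (0.192) and when only those groups were fitted (0.115). For Hpgds, the day 3 call ended without control replicate 1 and each RANKL day 3 array (0.0556 to 0.0644) and when only those groups were fitted (0.0584). Its day 4 call ended without any 1 of the arrays other than RANKL day 1 replicate 2 (0.051 to 0.221), without further scaling (0.0661), after centring on medians (0.0732), after adding 16 before log2 (0.0539) and when only those groups were fitted (0.124).

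Of 11 genes that supply UDP-glucuronate and the sulfate donor PAPS, only Papss2, a PAPS synthase, was called, higher by 0.58 ± 0.09 on day 1 (adjusted p = 0.00158), 0.43 ± 0.09 on day 2 (adjusted p = 0.0153) and 0.60 ± 0.09 on day 4 (adjusted p = 0.0034). On each day 2 of the 11 had an unadjusted p under 0.05. Of 16 other NRF2-linked genes, Akr1b8, an aldo-keto reductase, was the only one called, on day 3 (1.70 ± 0.36, adjusted p = 0.0213), and the list medians lay between -0.02 and 0.16. Of these 16, 2, 3, 3 and 3 had an unadjusted p under 0.05 on days 1 to 4. None of 6 NADPH supply genes was called by limma on any day, though 1, 3, 3 and 2 had an unadjusted p under 0.05 on days 1 to 4, with medians of 0.10 to 0.16. For Papss2, the day 2 call ended without control replicate 1 and RANKL day 2 replicates 2 and 3 (0.0641 to 0.0682), after centring on medians (0.0709) and when only those groups were fitted (0.0838). For Akr1b8, the day 3 call ended without control replicates 1 and 2 and RANKL day 3 replicates 2 and 3 (0.0559 to 0.0884).

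Of 12 xenobiotic receptors and their regulators, Ahr, the aryl hydrocarbon receptor, rose by 0.53 ± 0.10 on day 2 (adjusted p = 0.00856). Rxra, the shared partner of many nuclear receptors, fell by 0.43 ± 0.10 on day 2 (adjusted p = 0.039) and 0.43 ± 0.10 on day 3 (adjusted p = 0.0371). No other gene of this list was called. At an unadjusted p under 0.05 there were 7, 6, 6 and 4 of the 12 on days 1 to 4, without a share of all genes to set beside them. The list medians were -0.29, -0.13, -0.22 and -0.06, and the day 1 differences ran from -0.91 to 0.36. Of 11 other hydrolases and conjugating enzymes, Cmbl, which activates ester prodrugs, fell by 0.63 ± 0.14 on day 1 (adjusted p = 0.021). For Rxra, the day 2 call ended without any 1 of the arrays other than RANKL day 1 replicates 1 and 2, RANKL day 2 replicate 3, RANKL day 3 replicates 1 and 2 and RANKL day 4 replicate 2 (0.0502 to 0.197), without further scaling (0.158), after centring on medians (0.3) and when only those groups were fitted (0.0979). Its day 3 call ended without each control array, RANKL day 2 replicate 1, RANKL day 3 replicates 2 and 3 and RANKL day 4 replicates 1 and 3 (0.0503 to 0.165), without further scaling (0.158), after centring on medians (0.28) and when only those groups were fitted (0.0742). For Cmbl, the day 1 call ended without control replicates 2 and 3 (0.0688 to 0.0942), after centring on medians (0.064) and when only those groups were fitted (0.153).

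The epithelial label was set against 13 lists of cell type markers with 107 measured genes. Beside their calls, 3.94%, 2.57%, 2.96% and 0.908% of all genes were called on days 1 to 4. For the marker counts at an unadjusted p under 0.05 no such share was taken. The 15 absorptive enterocyte markers had a summed level (log2 of the summed intensities) of 16.65 to 16.93 in the controls and 16.62 to 17.01 under RANKL, and limma called 1 of the 15 higher on day 2 and 0 on the other days, with 2 at an unadjusted p under 0.05 on each day. Of 9 markers of M cells, which RANKL is known to induce, 8, 9, 9 and 8 were called higher on days 1 to 4. Their summed level was 12.19 to 12.38 in the controls, 13.98 to 14.24 on day 1, 14.41 to 14.54 on day 2, 14.02 to 14.34 on day 3 and 13.28 to 13.76 on day 4, and Gp2, Spib, Tnfaip2 and Sox8 were near background in the controls.

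Tuft cell markers were called higher for 0, 3, 5 and 6 of 8 genes on days 1 to 4, and enteroendocrine markers for 0, 0, 2 and 5 of 8. Their summed levels were highest on day 4, when Gsta3, Gsta4 and Ces1g were also highest. For tuft cells the day 4 level was 10.47 to 10.67, against 9.75 to 9.89 in the controls. For enteroendocrine cells it was 12.63 to 12.78, against 11.91 to 12.11. Of the 8 tuft cell markers, 7 were near background in the controls and on day 1, and 6 on day 2. On day 3 these were 4, and on day 4 2, Il25 and Hpgds. Of the enteroendocrine list, Neurod1 and Rfx6 were near background in the controls and on days 1 and 2. Of 8 ileum markers 1 was called lower on days 2 and 3, and 2, 3, 4 and 4 had an unadjusted p under 0.05 on days 1 to 4. The ileum list had a median difference of -0.25, -0.35, -0.34 and -0.24, and its summed level was 15.12 to 15.19 in the controls, 14.81 to 15.05 on day 1, 14.75 to 15.02 on day 2, 14.42 to 15.04 on day 3 and 14.76 to 15.12 on day 4. On days 1 to 3, when the 10 lower members fell, each array lay below all controls, with Hoxb7 near background in every group. Of 8 markers of the proximal small intestine 1, Slc40a1, was called lower on every day. Limma made 0 calls for the 8 T cell, 5 B cell and 6 goblet cell markers, of which 4, 0 and 0 had an unadjusted p under 0.05 on day 4. In the controls the T cell markers had a summed level of 12.11 to 12.54, with Cd3d and Zap70 near background. The myeloid markers had 13.18 to 13.33 there, with only Adgre1 near background. The other measured markers of both lists lay above background in the controls, so the samples were not free of leukocyte marker signal. Of 10 stem and dividing cell markers 1 was called higher on day 1, and 3, 2, 8 and 3 had an unadjusted p under 0.05 on days 1 to 4. On day 3 all 10 were above control (0.12 to 0.74, median 0.54), and their summed level was 13.35 to 13.48 against 12.67 to 12.90 in the controls, without overlap. It was 12.93 to 13.09 on day 1, 12.55 to 13.43 on day 2 and 13.14 to 13.31 on day 4. Of 8 stromal markers 1 was called lower on day 1, of 8 myeloid markers 1 was called lower on day 1 and 1 higher on day 2, and of 6 Paneth cell markers 1 was called lower on day 2. The part of these marker changes in the members' differences was not tested.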

How the data were processed

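Epithelial RNA of 15 mouse samples in 5 groups of 3 was measured on Affymetrix arrays. The authors deposited 28853 probe sets as linear intensity values. The submitters' processing notes name the build mm9, and how probes were summarised or scaled is not given in the sources used here. Of the probe sets, 21789 carried 1 gene symbol, and the brightest by mean stood for each of 19938 genes. The log2 intensities (pseudocount 0) were quantile normalised, because array medians differed by 0.18, over the limit of 0.1. No dim genes were left out, and probe sets of several genes, 12 of them of these families, were not used as members.

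A linear model with 1 mean per group over all 15 arrays was fitted in limma 3.58.1 (R 4.3.3), without a block, with 10 residual and 3.49 prior degrees of freedom and two-sided tests. Benjamini-Hochberg adjustment ran over all genes of a contrast, and an adjusted p under 0.05 was a call. The method was tested on simulated data. Named were Gclc, Gclm, Gss, Gsr, Nqo1 and Ephx1, every called member, the uncalled member with the largest difference in each family, and up to 3 called genes of each list. Of the other glutathione enzymes every called gene was named. Sult1b1, Gstm6 and Ces1c are described further because of their position or pattern. Members and lists were chosen with earlier results of these data known. Alternatives were no scaling or median centring, 16 added before log2, the dimmest 40% of genes dropped, probe sets averaged, a robust trended prior, array weights, a block for replicate number, separate fits per comparison, and each array left out. Promoters came from RefSeq (GRCm38.p6) and were matched by symbol. The number of arrays limits the precision, and depth does not apply to arrays.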

Additional observations from a re-analysis of the deposited data

Results flagged for a closer look

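For 10 of the 68 members the difference from control was not the same on day 4 and day 1, where 1.32% of all genes were called. This was tested as the difference of the 2 days in limma (log2 scale, 3 arrays per group, adjusted over all genes). The glutathione transferases differed by 1.16 (adjusted p = 0.00461) for Gstk1, 1.03 (adjusted p = 0.019) for Gstm1, 1.26 (adjusted p = 0.0103) for Gstm6, 0.89 (adjusted p = 0.0344) for Gsta4 and 0.47 (adjusted p = 0.0116) for Gsto1. Ugt2b36 differed by 1.41 (adjusted p = 0.00459). The carboxylesterases differed by 1.00 (adjusted p = 0.0175) for Ces1c, 0.84 (adjusted p = 0.00208) for Ces1e, 1.33 (adjusted p = 0.007) for Ces1f and 1.02 (adjusted p = 0.0332) for Ces2a. All 10 were higher on day 4. Of these calls, those of Gstk1, Ugt2b36, Ces1e and Ces1f held without each array in turn. None of the 10 held when only these groups were fitted (adjusted p 0.089 to 0.252).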

How the results depend on the processing

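Of 42 calls of members, 18 held without each array in turn and 13 held under all alternatives, and none changed direction. When only the groups compared were fitted, 6 members were called on day 1 (1.35% of all genes) and 0 for day 4 against day 1 (0.0201%). With median centring the counts were 5 on day 3 (1.29%) and 17 for day 4 against day 1 (2.93%). With weights per array they were 2 for day 2 against day 1 (0.838%), 5 for day 4 against day 3 (0.898%) and 18 for day 4 against day 1 (3.23%). Leaving out each array in turn gave 5 to 13 members on day 1, 5 to 12 on day 2, 2 to 11 on day 3 and 3 to 7 on day 4, 14 to 19 by the F test, 4 to 12 for day 4 against day 1, 0 to 1 for day 2 against day 1 and for day 4 against day 3, and 0 for day 3 against day 2. The share of all genes called also moved with the array left out, so these ranges are not a result about the members. Arrays with the same replicate number went together in part. Of 30 pairs with the same number 19 had correlated deviations over 0.1 (lowest -0.20, median 0.14). The median of pairs with different numbers was -0.07, and 12 of 15 arrays correlated best with an array of their own number. With the replicate number as a block the counts were 11, 11, 8 and 6 on days 1 to 4, 1 for day 2 against day 1 and 12 for day 4 against day 1. The share of all genes called with the block is not given beside these counts, so they are not a result about the members. With the block the day 2 call of Gstm1 (adjusted p = 0.0584) and the day 4 call of Hpgds (0.0709) ended and a day 4 call of Gclc was gained (0.0493). The cause of these differences was not tested. Signal over background limits the 27 members near background in all groups.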

Other observations

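Ugt2a3, Sult1d1 and Sult1b1, all on chromosome 5, were lowest in the same array of the controls and of day 3; they were picked out after their values were seen. In control replicate 1 they measured 7.75, 11.17 and 10.74, each the lowest control, and in RANKL day 3 replicate 1 6.72, 10.79 and 10.59, each the lowest of that group. Ugt2a3 had a range of 2.48 within day 4, with RANKL day 4 replicate 3 lowest. The 8 probe sets shared by several genes of these families outside the alpha class differed from control by -0.26 to 0.27 on the log2 scale on the 4 days, and none of them was called.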
